A study of Mus musculus with 172 samples.

Results

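Lysine is broken down in mitochondria to acetyl-CoA by a short chain of enzymes, and 6 genes of that chain were followed here through cerebral cortex and liver of a mouse genetic reference population: Aass, Aldh7a1, Aadat, Dhtkd1, Dlst and Gcdh. They were chosen by their place in the route, with earlier results of these data known, and make up 6 of the 16308 genes listed in either tissue. All 6 were listed in liver and 5 in cortex, where Aadat was not listed. RNA-seq was done on 172 libraries, 43 for each combination of tissue and condition, in which SD mice were kept awake for 6 h from light onset and Ctr mice were left undisturbed, both being killed at the end of that interval. The comparisons used 156 libraries, 39 pools per tissue and condition: 33 BXD/RwwJ lines, which are recombinant inbred lines derived from C57BL/6J (B6) and DBA/2J (D2), 2 pools of each parental strain collected at the start and the end of the experiment (B6-1, B6-2, D2-1 and D2-2), and 1 pool of each reciprocal F1 cross (BD-F1 and DB-F1). Another 16 libraries from 4 lines named BXD/TyJ (BXD05, BXD29, BXD29t and BXD32) were kept apart. Among the BXD/RwwJ lines the labels also name BXD96 as 48a, BXD97 as 65a and BXD103 as 73b. These were counted as lines separate from BXD48, BXD65 and BXD73, and relatedness between lines was not modelled. A pool held equal amounts of RNA from 3 male mice of 11 to 14 weeks, fewer in BXD79, BXD85 and BXD101, so a line had 1 library per tissue and condition and no replicate of its own. P-values of SD against Ctr therefore measure the spread between pools of different lines, unless the line was a block. Tests with the line as a block, of the tissue difference and of spread use pairs within a line. Tests between parental strains use pools of those strains.

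The route starts with Aass, a bifunctional enzyme that joins lysine to 2-oxoglutarate to form saccharopine and then splits saccharopine into glutamate and 2-aminoadipate semialdehyde. Aldh7a1 (antiquitin) oxidizes the semialdehyde to 2-aminoadipate, and Aadat, an aminotransferase that also acts on kynurenine, turns 2-aminoadipate into 2-oxoadipate. Dhtkd1 is the first (E1) subunit of the complex that decarboxylates 2-oxoadipate to glutaryl-CoA, Dlst is the E2 subunit that this complex shares with the 2-oxoglutarate dehydrogenase of the citric acid cycle, and Gcdh, the flavin enzyme that is deficient in glutaric aciduria type I, converts glutaryl-CoA to crotonyl-CoA. Liver is a main site of lysine breakdown, whereas in brain a route through pipecolate has also been described.

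Dhtkd1 and Aass were the members whose level passed the test in both tissues after SD, in opposite directions, and the 250 bases before their annotated starts are shown for that reason. They come from RefSeq on GRCm38.p6, a later build than that of the counts, at chr2:5942793-5943042 for Dhtkd1 and chr6:23132987-23133236 for Aass, and both read 5′ to 3′ on the minus strand. Capitals mark matches to the motifs searched on both strands.
Dhtkd1: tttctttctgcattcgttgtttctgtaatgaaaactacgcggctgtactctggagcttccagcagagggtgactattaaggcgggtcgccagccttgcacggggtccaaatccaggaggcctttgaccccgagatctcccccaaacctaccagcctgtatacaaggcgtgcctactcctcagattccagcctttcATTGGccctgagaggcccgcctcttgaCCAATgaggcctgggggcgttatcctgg
Aass: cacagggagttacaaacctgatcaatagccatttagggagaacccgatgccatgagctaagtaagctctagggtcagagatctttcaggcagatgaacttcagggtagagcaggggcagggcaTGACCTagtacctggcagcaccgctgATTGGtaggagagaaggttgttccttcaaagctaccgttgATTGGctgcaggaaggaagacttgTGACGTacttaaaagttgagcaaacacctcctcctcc
The CCAAT box was found in both windows, at 55 and 28 bases before the start of Dhtkd1 and at 101 and 61 bases before that of Aass, and 33.8% of the 32851 RefSeq promoter windows of this length held it. The Aass window also held TGACGT, the core of a cyclic AMP response element, at 37 bases before the start (6.47% of windows) and AGGTCA, a nuclear receptor element, as its complement TGACCT at 127 bases (in 4607 of the 32851 windows). No motif overlapped another. CACGTG, the E-box read by the clock factors, and TGTTCT, which is the more conserved arm of the glucocorticoid response element, matched neither window (6.02% and 16.1% of all windows). Aldh7a1 had no entry in the promoter table, and the windows of Aadat, Gcdh and Dlst held 0, 1 and 0 CCAAT boxes and none of the other motifs.

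The genes lie on 5 chromosomes. On the mm9 assembly (GENCODE M1 annotation) Aass spans chr6:23022173-23082986 on the minus strand, Aldh7a1 chr18:56669341-56732605 on the minus strand, Aadat chr8:62984921-63024474 on the plus strand, Dhtkd1 chr2:5817161-5863838 on the minus strand, Dlst chr12:86451783-86475041 on the plus strand and Gcdh chr8:87410292-87417820 on the minus strand. Aldh7a1 overlapped the gene Phax by 10509 bases and Gcdh overlapped Syce2 by 1829 bases, in both cases on the opposite strand, and reads were counted by strand.

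Cortex libraries held 18995492 to 28998853 reads and liver libraries 4681101 to 8269401 reads in listed genes. Hepatocyte markers (6 of 6 listed) summed to between 2060 and 3479 CPM (counts scaled to library size) in liver, where 0 of 6 passed the test after SD by limma, and neuronal markers (6 of 6 listed) to between 11511 and 13492 CPM in cortex, where 3 fell. In cortex Alb, Apoa1, Serpina1c and Cyp2e1 were not listed. The other 2 genes of the hepatocyte list, Ttr and Cps1, summed to between 2.50 and 380 CPM in cortex. They are not read as hepatocyte signal there, and the cells they came from were not tested. The choroid plexus list (2 of 5 listed) summed to between 3.205 and 17.50 CPM in cortex Ctr and between 3.225 and 26.47 CPM in cortex SD. The astrocyte list (5 of 5 listed) ranged from 996 to 1651 CPM in cortex Ctr and from 1068 to 1362 CPM in cortex SD, and 2 of its members rose. In liver the B cell markers Cd79a, Cd79b and Ms4a1 (3 of 3 listed) all fell, from a summed range of 4.92 to 22.9 CPM in Ctr to 1.87 to 9.42 CPM in SD, with Cd79a and Ms4a1 at 0 in at least 1 SD library. Over all genes 68.4% passed the same test in cortex and 44.2% in liver. The part of these cell types in the results for the lysine genes was not tested, and in bulk tissue fewer cells of a type cannot be told apart from less RNA per cell. Library BXD70 in liver SD was the shallowest of all, at 4681101 reads, and DB-F1 was the shallowest of the liver Ctr libraries, at 5034166 reads. Results that rest on BXD70 are given with and without it.

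Median levels of the 5 genes listed in cortex were farther apart than those of the 6 genes in liver. Per kilobase of exon (RPKM, median of the 39 Ctr pools), Dlst reached 52.1 in cortex, followed by Gcdh at 9.98, Aldh7a1 at 7.81, Dhtkd1 at 1.93 and Aass at 1.39. The ranges over pools of Gcdh (8.30 to 13.1) and Aldh7a1 (6.00 to 16.4) overlapped, as did those of Dhtkd1 (1.36 to 2.25) and Aass (0.853 to 2.00). In liver Aadat stood at 117.3, Gcdh at 114.5, Aass at 113, Dlst at 109, Aldh7a1 at 80.3 and Dhtkd1 at 27.8, so that the E1 subunit was the lowest of the route in liver. The ranges over pools of Aass (102.7 to 145.4), Aadat (94.4 to 150.9), Gcdh (101.6 to 147.1) and Dlst (91.7 to 133.7) overlapped in liver, and neighbours in that order did not separate. Both tables were normalized separately, and levels were not tested between tissues. By reads per exonic base the densest gene stood 24.1 times above the median gene in liver and 286 times in cortex. Liver levels other than that of Dhtkd1 also moved with library depth, as given below. The part of both in the spacing of levels was not tested.

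In liver, the measured level of 5 members moved with the depth of the library. Over the 39 Ctr pools, log2 CPM of Aldh7a1 was correlated with log2 library reads at r = -0.91 (rho = -0.93, permutation p = 1e-05, the smallest that 100000 permutations can give, adjusted p = 2.2e-05 over 11 relations), with r = -0.89 after leaving out the 2 libraries farthest from the median depth. The same relation gave r = -0.85 for Gcdh (rho = -0.81), -0.84 for Dlst (rho = -0.80), -0.80 for Aass (rho = -0.78) and -0.76 for Aadat (rho = -0.71), each at the same smallest p, and these 4 values lay between -0.80 and -0.68 without the same 2 libraries. Dhtkd1 was the exception in liver (r = -0.06, rho = -0.01, permutation p = 0.70, adjusted p = 0.77). In cortex 0 of 5 members passed the adjusted threshold by this permutation test, 1 of them at an unadjusted p under 0.05 (Dlst, r = 0.34, rho = 0.33, permutation p = 0.031, adjusted p = 0.057).

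The members with this relation were among the most densely covered genes of the liver libraries. Aadat had 0.791 reads per exonic base at the median library, Aass 0.788, Gcdh 0.769, Dlst 0.721 and Aldh7a1 0.546, and between 1.99% and 5.55% of liver genes were denser. Dhtkd1 had 0.186 reads per base, with 26.4% of genes denser. The densest gene in liver was Alb, the albumin gene, at 1.78 reads per base, which was 24.1 times the median gene, whereas the densest gene in cortex stood 286 times above the median. What the depth relation comes from was not tested. It bears on every liver value of these 5 members, including the levels above. Values below are therefore given with log2 library reads as a covariate wherever that changed a call.

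The first comparison asked how the route responded to SD in cortex. Aass rose and Dhtkd1 fell there by nearly the same amount on the log2 scale, and Dlst rose by a small one. Of the 5 listed members 2 rose and 1 fell at an adjusted p under 0.05 (limma, Benjamini-Hochberg), where 68.4% of all 14896 genes passed, 33.0% higher and 35.4% lower.

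Aass, the entry enzyme, ranged from 1.70 (BXD48) through a median of 2.41 to 2.93 (BXD97) log2 CPM in Ctr and from 2.21 through 2.94 to 3.37 in SD. The ranges overlapped, but SD was above Ctr in 38 of 39 pools, with changes from -0.11 in BXD100 to 1.08 in BXD66. The mean change was +0.50 ± 0.06 (SE, n = 39 pools per group, limma adjusted p = 4.8e-12), on 70 to 243 reads per library.

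Dhtkd1 ranged from 2.99 (BXD90) through 3.50 to 3.72 (BXD96) log2 CPM in Ctr and from 2.58 (BXD55) through 3.04 to 3.32 (BXD50) in SD. SD was below Ctr in 38 of 39 pools, the exception being BXD90, the line with the lowest Ctr value, at a change of 0.11, and the largest fall was -0.75 in BXD70. The mean change was -0.47 ± 0.04 (SE, limma adjusted p = 1.4e-18), on 118 to 359 reads per library.

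Dlst lay in a narrow band, from 7.04 through 7.18 to 7.30 log2 CPM in Ctr and from 7.14 through 7.25 to 7.36 in SD. It rose by 0.08 ± 0.01 (SE, limma adjusted p = 2.9e-06) and was higher in 36 of 39 pools. Aldh7a1 changed by 0.04 ± 0.12 (SE, adjusted p = 0.78) and Gcdh by 0.04 ± 0.04 (SE, adjusted p = 0.43), and neither passed the test. With the line as a block, which removes the spread between lines, the same changes gave limma adjusted p = 0.0096 for Aldh7a1 (higher in 25 of 39 pools) and 0.025 for Gcdh (higher in 24 of 39), in a fit that called 76.3% of all cortex genes.

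In liver Dhtkd1 was again lower and Aass higher after SD, and of the 6 listed members these 2 passed the test, 1 in each direction, where 44.2% of all 14107 genes passed, 21.5% higher and 22.6% lower (limma). Dhtkd1 ranged from 6.54 (BXD85) through 7.34 to 8.27 (BXD51) log2 CPM in Ctr and from 6.02 (BXD56) through 6.77 to 8.19 (BXD61) in SD. Changes ran from -1.52 in BXD70 to 0.18 in BXD81, and 33 of 39 pools were lower. The mean change was -0.40 ± 0.15 (SE, limma adjusted p = 0.022), and -0.40 ± 0.06 with the line as a block (adjusted p = 3.6e-08). Without BXD70 it was -0.37 (limma adjusted p = 0.037).

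Aass in liver ranged from 8.61 through 8.76 to 9.12 (DB-F1) log2 CPM in Ctr and from 8.65 through 8.83 to 9.05 in SD. It rose by 0.08 ± 0.02 (SE, limma adjusted p = 0.0067) and was higher in 32 of 39 pools. With library depth as a covariate the change was 0.07 ± 0.02 (SE, adjusted p = 6.5e-04).

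The other members in liver did not pass the test. Aadat changed by 0.05 ± 0.03 (SE, limma adjusted p = 0.25), from a Ctr range of 7.48 to 8.15 to an SD range of 7.56 to 8.26 log2 CPM. Aldh7a1 (8.49 to 9.13 in Ctr and 8.51 to 9.04 in SD) changed by 0.02 ± 0.03 (adjusted p = 0.61) and Gcdh (8.13 to 8.66 and 8.04 to 8.67) by 0.01 ± 0.03 (adjusted p = 0.76). Dlst (7.994 to 8.538 and 7.999 to 8.374) changed by -0.04 ± 0.02 (adjusted p = 0.12), and it passed with the line as a block (adjusted p = 0.020, with 53.9% of all genes called) and with library depth as a covariate (-0.05, adjusted p = 9.8e-04, with 48.8% of all genes called). In Ctr the highest value of all 5 depth-related members came from DB-F1, the shallowest Ctr library.

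**Figure D1:**
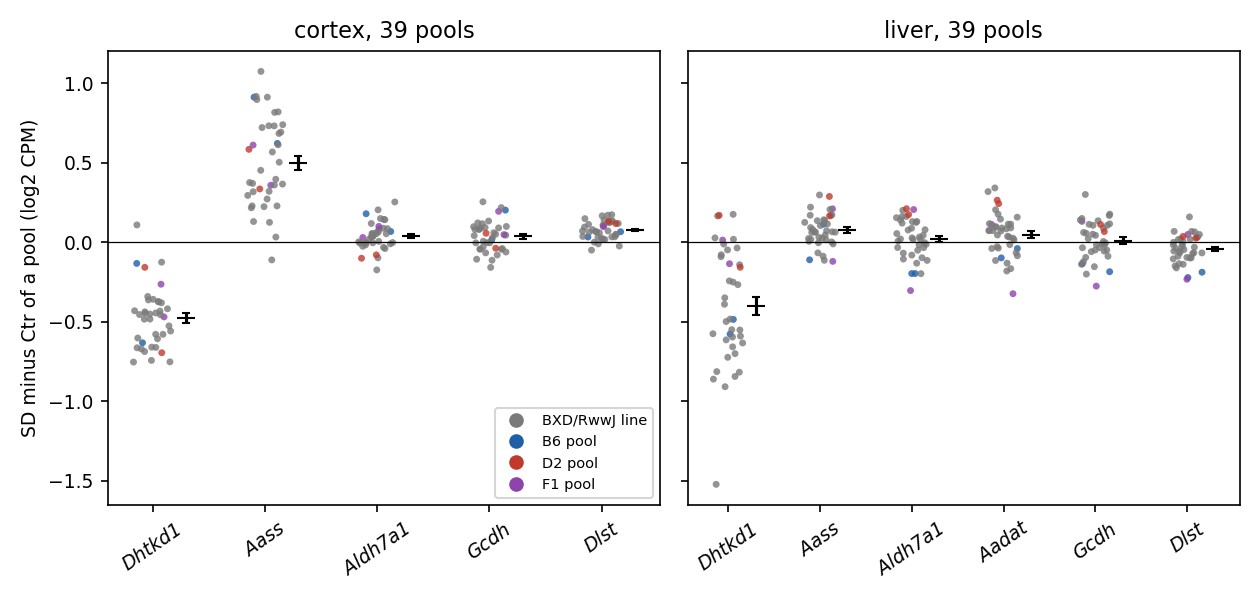
Change of each member after SD (SD minus Ctr of the same pool, log2 CPM) in cortex and liver; each point is 1 of 39 pools and the black mark is the mean. In cortex 38 of 39 pools lie above 0 for Aass and 38 of 39 below 0 for Dhtkd1, and in liver the Dhtkd1 points reach from -1.52 to 0.18.

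Whether a member responded differently in liver and cortex was tested on the difference of the paired changes within each of the 39 pools. Of 5 members listed in both tissues 2 had a lower change in liver, where 57.7% of the 12695 shared genes passed, 28.1% higher and 29.6% lower (limma, Benjamini-Hochberg). The Aass change was smaller in liver by 0.42 on the log2 scale (difference -0.42 ± 0.04 SE, adjusted p = 1.5e-10). The Dlst change was also lower in liver (-0.12 ± 0.02 SE, adjusted p = 1.2e-06), being positive in cortex and negative in liver. For Dhtkd1 the difference was 0.07 ± 0.07 (SE, adjusted p = 0.35), for Aldh7a1 -0.02 ± 0.03 (adjusted p = 0.54) and for Gcdh -0.03 ± 0.02 (adjusted p = 0.35), and with values adjusted for library depth Gcdh passed at -0.04 (adjusted p = 0.045). The Dhtkd1 value is a mean over lines on 2 liver levels, described below. Median liver changes were -0.60 in the 20 lower and -0.05 in the 13 upper lines, so this mean does not show the same response in both tissues.

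Dhtkd1 in liver fell into 2 levels among the BXD lines. In Ctr, 20 of the 33 BXD/RwwJ lines lay between 6.54 and 7.40 log2 CPM (median 7.07) and 13 between 7.88 and 8.27 (median 8.12), with no line in the 0.47 between them. After SD the empty interval widened to 0.86, from 6.95 to 7.81, with 21 lines below and 12 above. An empty stretch of at least 0.2 of the range, with 3 or more lines on each side, was seen for 1 of 6 members in liver Ctr and for 6.96% of all liver genes. After SD it was seen for 2 of 6, against 8.22% of all genes, Aldh7a1 joining with 3 lines set apart at its upper end. These were BXD48, BXD50 and BXD70, the fewest that the rule allows, so without BXD70 this interval would not have counted. Aldh7a1 is a depth-related member, and BXD70 was the shallowest library. The SD over lines of Dhtkd1 in liver was greater than that of 79.8% of genes in Ctr and 88.1% in SD. In cortex its widest empty stretch was 0.13 of the range in Ctr, and no such levels were apparent.

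The pools with known parental origin sat on either side. In liver Ctr, B6-1 and B6-2 were at 6.90 and 7.09 log2 CPM, within the range of the lower lines, and D2-1 and D2-2 at 8.20 and 7.97, within that of the upper lines. After SD the B6 pools were at 6.32 and 6.60 and the D2 pools at 8.05 and 8.14. The F1 pools were at 7.72 (BD-F1) and 7.95 (DB-F1) in Ctr, between the means of the parents and nearer to D2, and at 7.74 and 7.82 in SD. Among the BXD/TyJ lines, BXD05, BXD29 and BXD29t lay between 7.95 and 8.13 in Ctr, and BXD32 at 5.80 lay below every other liver Ctr pool. Genotypes of the lines were not used here.

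The change after SD differed in range between the lines at the lower and the upper level. Because these sides were set by the Ctr level itself, the changes are given as a description only. All 20 lower lines had a lower value in SD, with changes from -0.91 in BXD73 to -0.25 in BXD85 and a median of -0.60. Of the 13 upper lines 9 had a lower and 4 a higher value, with a median of -0.05, and apart from BXD70 their changes lay between -0.35 and 0.18, which overlapped the range of the lower lines. BXD70 went from 8.12 in Ctr to 6.60 in SD and was the only line to change side.

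The BXD70 libraries were compared with each other over other genes on 2 levels, to see whether the liver SD library sat with its own line. These were genes, the 6 members left out, with an empty interval of at least 0.3 of the range and over 0.5 log2 CPM in both sets of libraries compared and with at least 90% of lines on the matching side, a condition that favours agreement. Of 64 such genes between liver Ctr and liver SD, BXD70 changed side in 1, beside a median of 0 over the lines and a highest count of 8 in BXD95. Between liver SD and cortex Ctr BXD70 differed in 0 of 23 such genes (median 0, highest 1), and between liver SD and cortex SD in 1 of 29, which was the highest count of any line (median 0). In cortex, Dhtkd1 of BXD70 changed by -0.7531, the largest fall among the pools, beside -0.7517 in BXD61 and -0.7426 in BXD83. In liver the Dhtkd1 changes of BXD61 and BXD83 were 0.03 and 0.17, so the cortex fall does not bear on the liver library of BXD70.

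**Figure D2:**
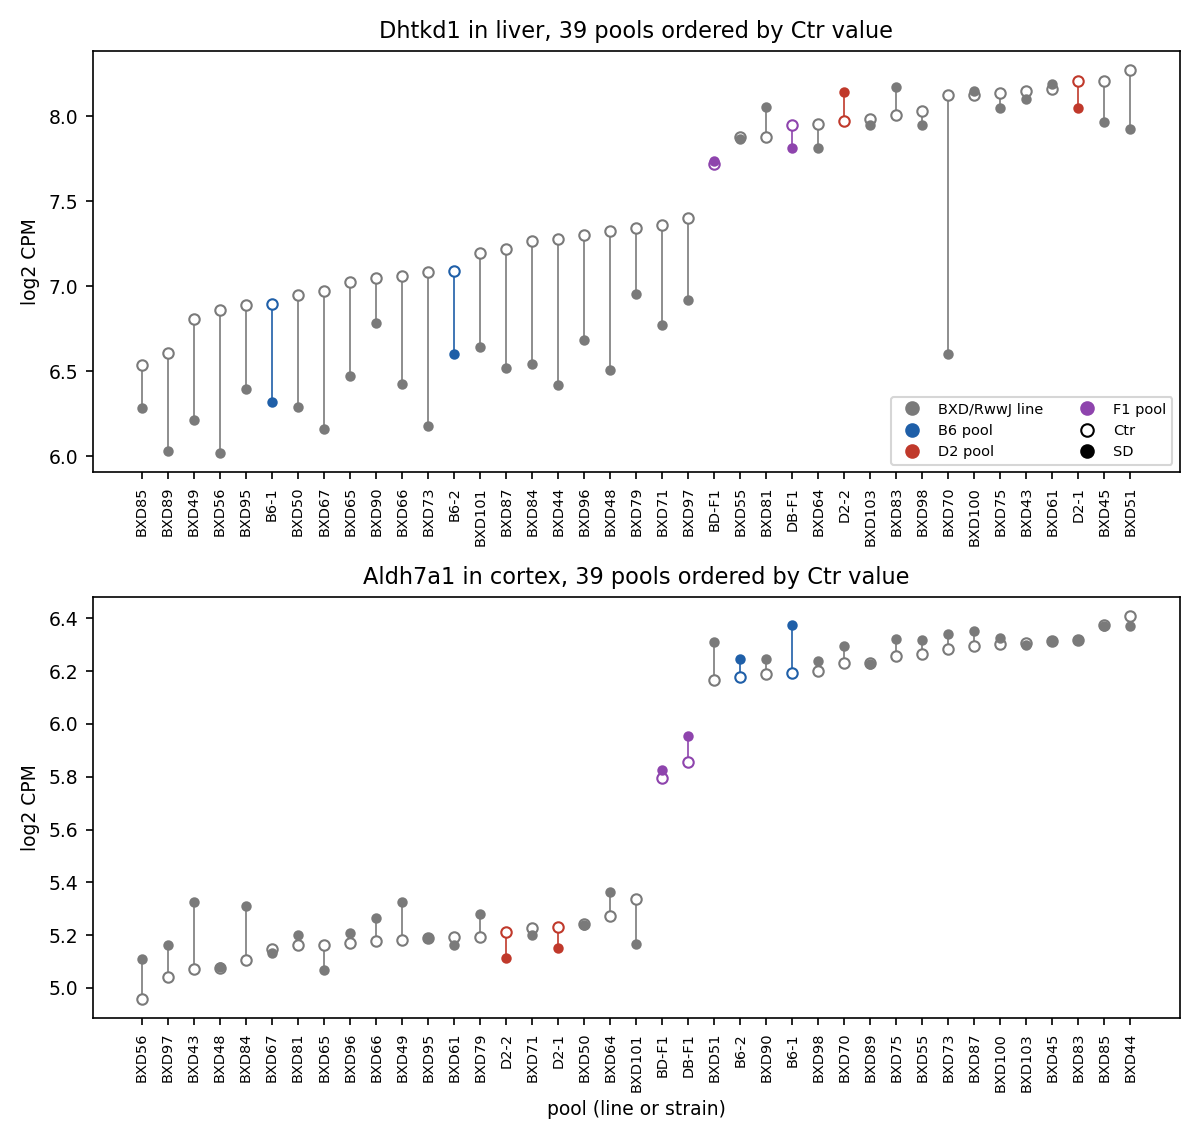
Dhtkd1 in liver and Aldh7a1 in cortex for each of the 33 BXD/RwwJ lines, the parental and the F1 pools, in log2 CPM, with lines in the order of their Ctr level. For Dhtkd1 the 20 lower lines change by -0.91 to -0.25 after SD and the 13 upper lines by -0.35 to 0.18, apart from BXD70 (8.12 to 6.60), so that the ranges overlap. For Aldh7a1 both levels are kept after SD.

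Dhtkd1 in liver was spread more widely over the lines after SD than before, which was tested by exchanging the conditions within lines. The SD over the 33 lines went from 0.53 log2 CPM in Ctr to 0.79 in SD, a ratio of 1.48 (log2 ratio 0.56, two-sided permutation p = 1e-05, the smallest that 100000 permutations can give, adjusted p = 1.1e-04 over 11 tests). The median log2 ratio over all liver genes was 0.21, and 83.4% of genes had a lower ratio than Dhtkd1. Without BXD70 the log2 ratio was 0.59 (permutation adjusted p = 1.1e-04). No other member passed this test in either tissue. Gcdh in liver came nearest (SD 0.09 to 0.14 log2 CPM, log2 ratio 0.55, permutation p = 0.041, adjusted p = 0.22).

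In Ctr, Aldh7a1 in cortex was the member with the widest empty interval. There 18 lines lay between 4.96 and 5.34 log2 CPM (median 5.18) and 15 between 6.17 and 6.41 (median 6.29), an empty interval of 0.83 and 0.57 of the range. The SD over lines, 0.57, was greater than that of 95.5% of cortex genes. All 33 lines kept their side after SD (18 from 5.07 to 5.36, 15 from 6.23 to 6.37), with changes from -0.17 to 0.25 at the lower and from -0.04 to 0.14 at the upper level. An empty stretch of at least 0.2 of the range was seen for 2 of 5 members in cortex Ctr and 1 of 5 in cortex SD, and for 5.12% and 4.71% of all genes.

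The parental order was the opposite of that of Dhtkd1. B6-1 and B6-2 were at 6.19 and 6.18 log2 CPM in cortex Ctr, D2-1 and D2-2 at 5.23 and 5.21, and BD-F1 and DB-F1 between them at 5.79 and 5.85. BXD05 and BXD32 lay at the lower level (5.19 and 5.21) and BXD29 and BXD29t at the upper (6.32 and 6.28). In liver Aldh7a1 showed no such levels in Ctr, its widest empty stretch being 0.07 of the range. Its liver values moved with library depth (r = -0.91), and levels were not sought with depth removed. By side of Dhtkd1 in liver and of Aldh7a1 in cortex, 14 lines were low in both, 9 high in both, 6 low in Dhtkd1 and high in Aldh7a1, and 4 the reverse.

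Gcdh was the second member with an empty interval in cortex Ctr, from 4.75 to 4.88 log2 CPM with 17 lines below and 16 above, at 0.201 of the range just over the limit of 0.2. After SD the widest stretch was 0.07 of the range. Its B6 pools were at 4.86 and 4.94 in Ctr, its F1 pools at 4.78 and 4.80 and its D2 pools at 4.63 and 4.70, in the same order as for Aldh7a1.

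The parental strains were compared directly, D2 minus B6, over 8 libraries per tissue with treatment as a covariate (limma, Benjamini-Hochberg). In cortex 2 of 5 members were lower in D2, where 25.5% of all genes passed, 11.6% higher and 13.9% lower: Aldh7a1 by -1.07 ± 0.05 (SE, adjusted p = 9.8e-10) and Gcdh by -0.29 ± 0.05 (SE, adjusted p = 8.8e-04). Aass was at 2.17 and 2.06 log2 CPM in B6 and at 2.62 and 2.51 in D2 in Ctr, and its difference of 0.30 ± 0.11 (SE) did not pass (limma adjusted p = 0.066), although it did without B6-1 (adjusted p = 0.016) and with each library centred on its median (0.31, adjusted p = 0.047). In liver 1 of 6 members was higher in D2, where 17.9% of all genes passed, 8.42% higher and 9.47% lower. This was Dhtkd1, by 1.36 ± 0.11 (SE, limma adjusted p = 7.3e-07), while in cortex its strain difference was -0.06 ± 0.11 (adjusted p = 0.73). The other liver differences, from 0.07 for Gcdh to 0.17 for Aadat, did not pass.

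Whether the SD change itself differed between the strains was added as a test after the values had been seen. In liver 2 of 6 members passed, where 7.19% of all genes did: the change was higher in D2 by 0.39 ± 0.07 (SE, limma adjusted p = 0.019) for Aldh7a1 and by 0.32 ± 0.07 (SE, adjusted p = 0.029) for Aadat. Both are depth-related members, and the liver libraries of B6 held more reads in SD (7491781 and 7250062) than in Ctr (6732104 and 6584349), those of D2 fewer in SD (5785013 and 5690812) than in Ctr (6547019 and 6848193). With values adjusted for library depth the differences were 0.11 (adjusted p = 0.53) and 0.03 (adjusted p = 0.93). Leaving out any 1 of the 4 parental pools leaves a single pool in a strain and cannot decide whether these changes differ. Dhtkd1 had a difference of 0.54 ± 0.15 (SE, limma adjusted p = 0.053), 0.54 with depth adjustment (adjusted p = 0.40) and 0.62 with median-centred libraries (adjusted p = 0.026). The depth-adjusted fit called 0.0142% of all genes and the median-centred fit 11.4%. In cortex 0 of 5 members passed (limma), 1 of them (Aldh7a1, -0.21 ± 0.09 SE) at an unadjusted p under 0.05, and 0.00671% of all genes did.

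Ctr and SD levels were then related over lines, to see whether lines kept their order. Ctr was related to SD over the 33 lines for Dhtkd1 in cortex (r = 0.50, rho = 0.59, permutation adjusted p = 0.0080 for r and 0.0016 for rho over 22 relations), and r was 0.71 without BXD90 and BXD56. For Dhtkd1 in liver no pooled value was computed, because of the 2 levels. Within the 20 lower lines r was 0.75 (rho = 0.79, permutation adjusted p = 4.4e-04 for both, 0.76 without 2 lines), and within the 13 upper lines -0.04 (rho = 0.29, adjusted p = 0.94), or 0.28 without BXD70.

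Among the other members the relation of Ctr to SD had an adjusted p under 0.05 in cortex for Dlst (r = 0.67, rho = 0.71), for the 15 upper lines of Aldh7a1 (r = 0.75, rho = 0.69) and for Aass (r = 0.43, permutation adjusted p = 0.025, but rho = 0.30 with adjusted p = 0.16). The 17 lower lines of Gcdh passed for r (0.57, permutation adjusted p = 0.044) but not for rho (0.37), and r was 0.32 without BXD51 and BXD75, so that the relation rested on those 2 lines. Without BXD70 it was 0.57 with permutation adjusted p = 0.052. In liver it passed for Aadat (r = 0.69, rho = 0.67), Aldh7a1 (r = 0.65, rho = 0.62), Dlst (r = 0.63, rho = 0.58), Gcdh (r = 0.61, rho = 0.53) and Aass (r = 0.60, rho = 0.54). After removing library depth the values for Aldh7a1 and Dlst were 0.33 (permutation adjusted p = 0.14) and 0.28 (adjusted p = 0.18) and no longer passed. Between cortex and liver in Ctr no relation of any member passed for r, and for rho only the 20 lower lines of Dhtkd1 did (rho = 0.53, permutation adjusted p = 0.040, r = 0.37).

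Correlations between members were higher in liver than in cortex. Over 78 libraries, with the mean of each condition removed, r between pairs of the 5 depth-related members in liver ran from 0.56 (Aass with Aadat) to 0.89 (Aldh7a1 with Gcdh), and from 0.01 to 0.60 once log2 library reads were also removed. Dhtkd1 had r between -0.04 and 0.15 with each of them. In cortex r between members lay between -0.24 and 0.04. These are descriptions across libraries that share lines, condition and depth.

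The genes most alike in pattern to each member were named in the same way. For Gcdh in cortex these were Scoc (r = 0.91), D8Ertd738e (r = 0.90) and Man2b1 (r = 0.88), all on chromosome 8 like Gcdh itself. For Aldh7a1 in cortex they were Gramd3 (r = 0.80), Srfbp1 (r = 0.65) and Phax (r = -0.63), all on chromosome 18, Phax being the gene that overlaps it on the opposite strand. Aass in cortex was most like Crot, a peroxisomal carnitine acyltransferase (r = 0.61), Arntl, which encodes the clock factor BMAL1 (r = 0.56), and Cdh19 (r = 0.55). Dlst in cortex was most like Ccdc39 (r = -0.72), Fbxw11 (r = 0.72) and Btrc (r = 0.72).

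In liver, r of the depth-related members with other genes was higher. It reached 0.97 for Aldh7a1 with Aldh1l1, Slc27a5 and Hibadh, 0.91 for Gcdh with Adh5 and Acaa1a and 0.90 with Reep6, 0.90 for Dlst with Sdha and Aldh6a1 and 0.89 with Sec14l2, 0.89 for Aadat with Selenbp2 and 0.88 with Ugt2b1 and 2810007J24Rik, and 0.88 for Aass with Man1a and 0.87 with Fmo5 and Cps1. Depth is shared by these points and was not removed. Dhtkd1 had no gene as close in either tissue. In cortex those reported were Bcap31 (r = -0.53), Lss and 5730522E02Rik (each r = 0.51) and Trpm3 (r = 0.50), and in liver Camk1d (r = -0.59), Egfem1 (r = 0.54), Actl6a (r = -0.54), Epm2a (r = 0.50) and Fam132a (r = -0.48).

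Camk1d, a calcium-dependent protein kinase gene, lies within 1 Mb of Dhtkd1 on chromosome 2 (chr2:5214503-5635561, minus strand, mm9), with Cdc123, Nudt5 and Sec61a2 between them. Of the 10 listed genes starting within 1 Mb of Dhtkd1 (Mcm10, Optn, Ccdc3, Camk1d, Nudt5, Cdc123, Sec61a2, Upf2, Echdc3 and Usp6nl), 3 rose and 2 fell in liver after SD (limma), where 44.2% of all genes passed. Camk1d fell by 0.30 on the log2 scale (adjusted p = 0.0072) and was lower in D2 by -0.56 (limma adjusted p = 5.6e-05), opposite in strain order to Dhtkd1. Usp6nl was the only other one called between the strains in liver (-0.30, adjusted p = 0.035). After Camk1d the highest r with Dhtkd1 in liver came from Sec61a2 (-0.41) and Nudt5 (0.36), and the remaining 7 were between -0.10 and 0.12. In cortex all 10 lay between -0.24 and 0.17, and 3 rose and 5 fell after SD, where 68.4% of all genes passed.

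Partner enzymes of the route were counted in the same fits, which held no term for line, so that spread between lines enters each call. Of 17 listed of 18 in cortex, 1 rose, 4 fell and 12 did not pass (limma), where 68.4% of all genes passed, with a median change of -0.01 beside -0.01 over all genes. Pipox, the pipecolate oxidase, fell by 0.88, Echs1, an enoyl-CoA hydratase, by 0.24 and Phykpl, the phosphohydroxylysine lyase, by 0.20. Dld, the E3 subunit that serves both Dhtkd1 and Ogdh complexes, changed by -0.004 and Ogdh itself by -0.01, neither passing.

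In liver 17 of the 18 partners were listed, of which 3 rose, 2 fell and 12 did not pass, where 44.2% of all genes passed, with a median of 0.02 beside -0.002 over all genes. Slc25a29, a mitochondrial carrier of basic amino acids, rose by 0.66, whereas Slc25a21, the carrier of 2-oxoadipate, fell by 0.44 and Phykpl by 0.42. Dld (0.002) and Mrps36 (0.01) did not pass. Slc25a21 was not listed in cortex.

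The kynurenine branch, which shares Aadat, was listed with 4 of 11 genes in cortex, of which 1 rose and 2 fell (limma), where 68.4% of all genes passed. Ido2, a tryptophan dioxygenase, fell by 0.69 and Afmid, the formamidase, by 0.38, Kyat1 (listed as Ccbl1), a kynurenine aminotransferase, rose by 0.14, and Kyat3 (Ccbl2) at -0.08 did not pass (median -0.23). In liver 10 of 11 were listed, 3 rose, 1 fell and 6 did not pass (median 0.01), where 44.2% of all genes passed. Acmsd, which diverts the route from NAD synthesis, rose by 0.41 and Kyat3 by 0.23, Kyat1 fell by 0.40, and Tdo2 (0.01) and Ido2 (0.01) did not pass.

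Carnitine synthesis, which starts from methylated lysine, was listed with 3 of 4 genes in each tissue. Over all genes 68.4% passed in cortex and 44.2% in liver (limma). In cortex Shmt1 fell by 0.66 and Aldh9a1 by 0.16, and Bbox1 (-0.11) did not pass (median -0.16). In liver Shmt1 fell by 0.10, and Aldh9a1 (0.05) and Bbox1 (-0.03) did not pass (median -0.03).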

How the data were processed

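Pooled RNA from cortex and liver was made into stranded mRNA libraries and sequenced as single-end reads. The authors aligned reads to mm9 with STAR in 2-pass mode, counted them per RefSeq gene with htseq-count (reverse strand, union mode), dropped genes with low mean counts, scaled libraries with edgeR's TMM and deposited log2 CPM values in 4 tables, 1 per tissue and condition. FastQC is also named in the submitters' processing notes. No step that removes duplicate reads is given in the sources used here. Whole reads could be recovered for 100% of values within 0.02 reads, and library depth and voom alternatives rest on them.

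The 14896 cortex and 14107 liver genes were tested with limma 3.58.1 (R 4.3.3, moderated by empirical Bayes with a trend of variance on level) on the deposited log2 values, Benjamini-Hochberg adjustment over all genes of a table and a threshold of 0.05. SD was compared with Ctr over 39 pools each without a term for line, liver with cortex on paired changes, and D2 with B6 over 8 libraries. Spread between lines therefore entered the SE of the SD fit, although each line gave a Ctr and an SD pool. Companions and markers are given from that fit only, so one that did not pass is not shown to be unchanged. Line relations, spread and depth relations used 100000 two-sided permutations (Python 3.11.15, scipy 1.17.1). The SD fit with and without the line block, the parental fit and the permutation tests of correlation and spread were tried on simulated data. The other fits, among them that on paired changes and voom, were not. Same-line pools deviated together (r at least 0.30 in cortex and 0.17 in liver, medians 0.61 and 0.48, against -0.02 for other lines), so the line is a true block. Alternatives were the line block, median-centred libraries, no variance trend, voom, a prior count of 0.25, a minimum mean of 0, other sets of pools and each line left out. The 6 members, their companions and the markers were chosen with earlier results of these data known. Named companions are the 3 called genes with the largest change and 2 uncalled ones per list and tissue, likeness lists give 3 genes (5 for Dhtkd1, of which 4 are reported for cortex), 1 likeness gene and 1 marker are not reported here, and Crym was named after its values were seen. Of the marker lists, oligodendrocytes, microglia and macrophages, choroid plexus, pituitary, exocrine pancreas, erythroid cells and kidney proximal tubule are reported with the observations. Positions come from GENCODE M1 on mm9, which had one gene for 15041 of the 16308 listed symbols.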

Additional observations from a re-analysis of the deposited data

Results flagged for a closer look

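Among the 4 BXD/TyJ lines, 5 of the 22 groups of a member, tissue and condition held a line far from the other 3 by Dixon's criterion. Chance gives about 1 in 20 independent groups. The 22 groups share the same 4 lines, in Ctr and in SD, so their count cannot be set against that rate. Dhtkd1 stood apart in BXD32 in liver, at 5.80 log2 CPM in Ctr and 5.45 in SD, both below the other 3 lines (7.95 to 8.13) and below every one of the 39 main pools. In cortex SD, Dhtkd1 was highest in BXD05 at 2.89, beside 2.67 to 2.71 in the others. Dlst and Gcdh in liver SD were lowest in BXD29t, at 8.04 and 7.99. Both are depth-related members. BXD29t held 2449 and 2358 reads of them, beside at most 2198 and 2349 in the main liver SD pools. The part of library depth in these values was not tested.

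The SD change differed between tissues for Aass, by -0.42 (liver minus cortex), and for Dlst, by -0.12. It differed between the parental strains in liver, by 0.39 for Aldh7a1 and 0.32 for Aadat. Neither passed once values were adjusted for library depth, in a fit that called only 0.0142% of all genes.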

How the results depend on the processing

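Adding line as a replicate block, with or without voom on recovered reads, 5 of 5 cortex members were called in place of 3, Aldh7a1 and Gcdh being added, while the share of all genes called went from 68.4% to 76.3% (76.4% with voom). In liver the block moved the count from 2 to 3, by adding Dlst, and the share of all genes from 44.2% to 53.9%, and the block changed no other call of the SD response. The liver strain difference of the SD change, added after seeing the data, had 2 members called (7.19% of all genes, 767 higher and 247 lower), 5 with median-centred libraries, adding Dhtkd1, Dlst and Gcdh (11.4%, 1404 higher and 208 lower), and 0 with depth-adjusted values (0.0142%, 0 higher and 2 lower). Leaving out 1 pool at a time gave 3 to 3 members in cortex, 2 to 2 in liver, 2 to 2 for the tissue difference, and 2 to 3 and 1 to 1 for the parental difference in cortex and liver. For the strain difference of the change it leaves a single pool in a strain, so no count is given. Without BXD70, 10 in place of 11 line relations and 1 spread passed. In cortex Aass and Dhtkd1 rested on 70 to 359 reads per library, which limits the precision of a single pool. Of 1127 alternative values of single members, 1072 kept direction and side of the threshold, 13 passed newly, 17 no longer passed and 25 turned sign, none of the 25 being called. The cause was not tested.

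Turned signs among the parental differences were in cortex Dhtkd1 (0.065 without D2-2) and Dlst (6.4e-04, median-centred), and in liver, with Ctr libraries alone, Aass (-0.020), Aldh7a1 (-0.025) and Gcdh (-0.060), the last also with depth adjustment (-0.053). For the strain difference of the change in cortex, Dhtkd1 gave 0.21 without B6-1 and 0.225 without D2-2, leave-one-out values running from -0.31. Among line relations, Dhtkd1 in the upper liver lines gave 0.050 over 39 pools, 0.16 with depth adjustment and 0.28 without BXD70, and between cortex and liver Gcdh gave 0.17 (lower lines, 39 pools) and -0.46 (upper lines, depth), Aass -0.13 (depth) and Aldh7a1 -0.10 (lower lines, depth). Among log2 ratios of spread, turned values were 0.073 for Dhtkd1 in cortex (39 pools), 0.011, 0.013 and 0.0099 for Aldh7a1 in cortex (39 pools, linear CPM, depth), 0.013 and 0.31 for Aass in liver (linear CPM, depth), -0.021 for Dlst in liver (median-centred), -0.17 for Aldh7a1 in liver (depth), and -0.19 and -0.056 for Aadat in liver (depth, without BXD70).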

Other observations

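Crym is a thyroid hormone-binding protein that also reduces the cyclic ketimine of the pipecolate route. It was not called after SD in either tissue by limma without a line term. The spread between its 2 liver levels enters that fit, which therefore cannot tell whether Crym changed in liver. Its liver level, noticed after the values were seen, had a wider empty interval in log2 units than that of any member. In liver Ctr 15 of the 33 lines lay between 0.53 and 2.26 log2 CPM and 18 between 4.48 and 5.83, with the B6 pools at 1.04 and 1.10, the D2 pools at 5.60 and 5.75 and the F1 pools at 4.67 and 4.61. After SD the same counts, 15 and 18, lay below 2.63 and above 5.00. In cortex it ranged from 4.27 to 5.61 in Ctr with no comparable interval.

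The remaining marker lists gave the following counts after SD (limma), where 68.4% of all cortex genes and 44.2% of all liver genes passed. In cortex oligodendrocytes (4 of 4 listed) and microglia and macrophages (4 of 4) each had 1 gene that rose and 1 that fell, and choroid plexus (2 of 5), pituitary (2 of 5), exocrine pancreas (1 of 5) and erythroid cells (1 of 4) had none called. In liver the 2 listed oligodendrocyte markers fell, 1 of 4 microglia and macrophage markers fell, 1 of 5 astrocyte markers rose, 1 of 2 listed neuronal markers fell, and choroid plexus, exocrine pancreas, erythroid cells and kidney proximal tubule, with 1 gene listed each, had none called. B cell and kidney proximal tubule markers were not listed in cortex, and pituitary markers were not listed in liver. Of the 2 genes of the hepatocyte list that were listed in cortex, 1 fell, and the cells they came from there were not tested.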
